A study of Rattus norvegicus with 12 samples.

Results

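The WNT and BMP signals exchanged between the cells of the liver sinusoid were followed through 10 genes. The count tables hold 32883 genes, with 9 of these 10 among them. The 10 were the WNT ligands Wnt2 and Wnt9b, the WNT amplifier Rspo3, the BMP ligands Bmp2 and Bmp6 and the R-spondin receptor Lgr5. With them came the WNT pathway genes Axin2, Znrf3 and Rnf43, and Hamp, which encodes the iron hormone hepcidin. The genes were chosen for what they are known to do, as senders or responders. Counts were read for 9 of them under the Ensembl identifiers of the files, among them ENSRNOG00000021276 (Bmp2), ENSRNOG00000011568 (Rspo3), ENSRNOG00000055010 (Axin2) and ENSRNOG00000021029 (Hamp), and Znrf3 was not analysed here. The data are UMI counts (unique molecular identifiers, each standing for 1 captured RNA molecule) from healthy male rat livers in 12 libraries. Total liver homogenate (TLH), the whole collagenase digest of a liver, gave single-cell libraries from 2 Dark Agouti (DA) and 2 Lewis (LEW) rats, and single-nucleus libraries came from another 2 DA and 2 LEW rats. A further DA and a further LEW library were enriched for immune cells by removing parenchymal cells with differential centrifugation. Per the study, these also had extra washing and removal of red cells, meant to lower the RNA released by hepatocytes. A further 2 libraries were Visium sections of Wistar liver. The TLH rats were 8 to 10 weeks old in the series description, while the methods of the study give a higher age for its DA and LEW rats; no age for the Wistar rats is given in the sources used here.

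Liver sinusoidal endothelial cells line the capillaries that run from the portal tracts, the periportal end of a lobule, to the central vein, its pericentral end. Endothelial cells next to the central vein are known in mice as a source of WNT ligands and of Rspo3, which stabilises WNT receptors on nearby hepatocytes by taking the ubiquitin ligases Rnf43 and Znrf3 off the membrane through Lgr4 and Lgr5; Axin2 and Rnf43 are themselves switched on by WNT and act as feedback inhibitors. BMP ligands made by sinusoidal endothelial cells, chiefly Bmp2 and Bmp6, act on hepatocytes, where receptor SMADs drive transcription of Hamp; hepcidin then leads to loss of the iron exporter ferroportin from the cell surface.

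The promoters of Hamp and Axin2 are shown because these are the responder genes, one of each pathway, whose levels along the lobule are described below. Each stretch is the 250 bases before the RefSeq start site on the GRCr8 build, 5′ to 3′, for Hamp at chr1:95300272-95300521 on the minus strand and for Axin2 at chr10:94398535-94398784 on the plus strand. The capitals in Hamp mark GGCGCC, the core letters of the BMP response element, beginning 129 bases before the start, and TTCNNNGAA, the letters bound by STAT factors, beginning 117 bases before it. The capitals in Axin2 mark CTTTGAA, beginning 232 bases before the start, and CTTTGAT, beginning 132 bases before it, both forms of the letters bound by the TCF/LEF factors that carry the WNT signal.
Hamp: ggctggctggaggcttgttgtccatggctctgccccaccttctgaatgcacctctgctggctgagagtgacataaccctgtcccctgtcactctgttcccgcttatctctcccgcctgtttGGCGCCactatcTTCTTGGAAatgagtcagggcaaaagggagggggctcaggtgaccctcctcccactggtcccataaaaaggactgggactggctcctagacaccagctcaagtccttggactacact
Axin2: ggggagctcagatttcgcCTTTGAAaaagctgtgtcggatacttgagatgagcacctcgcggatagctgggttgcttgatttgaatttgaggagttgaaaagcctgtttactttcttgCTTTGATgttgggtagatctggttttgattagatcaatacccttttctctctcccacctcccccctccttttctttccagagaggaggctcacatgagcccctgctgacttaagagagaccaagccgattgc
Both strands were searched, and the motifs do not overlap. Windows of the same length in all 33469 RefSeq promoters held GGCGCC in 8.69%, TTCNNNGAA in 7.67%, CTTTGAA in 4.68% and CTTTGAT in 3.15%, so a match describes letters and not a site. The promoter table held 7 of the 10 genes; of the other five, Wnt2 had GGCGCC 39 bases before its start, and Wnt9b, Rspo3, Bmp6 and Rnf43 had none of these letters in the window.

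Cells and nuclei were clustered with the WNT, BMP and hepcidin genes left out, so that no member defined the class it is measured in, and 4 classes were compared. The endothelial class, marked by Lyve1, Fcgr2b and Kdr, held 531 nuclei (116 to 155 per rat) and 2662 TLH cells (271 to 1057 per rat). A mesenchymal class led by the stellate cell genes Colec11, Col3a1 and Pth1r held 250 nuclei and 1216 TLH cells, a Kupffer class marked by Marco, C1qa and Cd5l held 282 nuclei and 1688 TLH cells, and hepatocytes made up 11321 nuclei and 16212 TLH cells. The libraries held 8039397 to 15186970 UMIs for nuclei, 61441846 to 92484173 for TLH, 48255870 and 60005133 for the immune-enriched pair, and 34449562 and 34827603 for the sections, with medians of 1541.5 to 2059 UMIs per kept nucleus and 1794 to 2545.5 per kept TLH cell. Hepatocyte RNA was present in every class: Alb (albumin) stood at 16103 CPM (UMIs among 1000000 of the class) in endothelial against 35601 in hepatocyte nuclei, and at 20547 against 28905 in TLH cells. One endothelial nuclear cluster of 110 nuclei held hepatocyte markers at a median of 81.3% of the hepatocyte level, beside 66.6% and 27.5% in the other 2 endothelial clusters, 63.8% in mesenchymal and 63.1% in Kupffer nuclei, and one TLH mesenchymal cluster of 224 cells held endothelial markers at 95.6% of the endothelial level, with C1qa at 2110 CPM. Differences of Bmp2, Rspo3 and Hamp without these clusters are given beside those with them where they moved by over 1.5 times or crossed the threshold. The endothelial cluster had a median of 3993 UMIs per nucleus, against 1204 and 1242 in the other 2, so it weighs more in the sums than its number of nuclei. It held the hepatocyte gene Hnf4a at 341 CPM, against 350.5 in hepatocyte nuclei. The nuclear values of Wnt2, Wnt9b and Bmp6 and of the central and portal types below include it. The 4 nuclear libraries shared 1 to 6 kept barcodes per pair. In what follows a level is in CPM, the number of UMIs of a gene among 1000000 UMIs of its class in 1 rat, and a difference is a log2 fold change with its standard error (SE) from edgeR's quasi-likelihood test on the summed counts, with Benjamini-Hochberg adjustment over all genes tested and a threshold of 0.05.

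Bmp2, a BMP ligand, was higher in the endothelial class than in the other 3. In DA-1, DA-2, LEW-1 and LEW-2 its level was 1315, 1211, 778 and 974 CPM in endothelial nuclei, 62.4, 40.4, 137 and 110.2 in mesenchymal nuclei, 17.8, 36.5, 19.1 and 81.6 in Kupffer nuclei and 11.8, 7.69, 10.8 and 20.6 in hepatocyte nuclei. In every rat the endothelial level was above that of the other 3 classes, and the endothelial values did not overlap with any of theirs. The difference was 67.1-fold against hepatocytes (log2 fold change 6.07 ± 0.29 SE, adjusted p = 8.36e-19), 11.4-fold against mesenchymal nuclei (3.51 ± 0.30, adjusted p = 4.56e-11) and 27.5-fold against Kupffer nuclei (4.78 ± 0.33, adjusted p = 1.97e-13). Without the endothelial cluster of high hepatocyte gene levels these log2 fold changes were 6.85, 4.28 and 5.50. TLH cells of other rats gave the same order of classes, with a lower level in endothelial cells only. Endothelial cells held 339.7, 462, 576 and 555 CPM and mesenchymal cells 58.4, 117, 164 and 147. Kupffer cells, near their nuclear level, held 23.9, 47.2, 27.6 and 51.7, and hepatocytes 13.3, 15.9, 9.29 and 15.9. There the difference was 29.3-fold against hepatocytes (4.87 ± 0.20, adjusted p = 2.18e-10), 12.4-fold against Kupffer cells (3.63 ± 0.22, adjusted p = 1.63e-08) and 4.34-fold against mesenchymal cells (2.12 ± 0.21, adjusted p = 7.84e-06). The last value rose to a log2 fold change of 3.90 (adjusted p = 7.06e-09) without the mesenchymal cluster of high endothelial gene levels, whose Bmp2 level was 320.0 against 28.6 in the largest mesenchymal cluster. A Bmp2 UMI was found in 71.6% of endothelial nuclei and 2.38% of hepatocyte nuclei, or 60.5% and 1.04% after thinning each nucleus to 1000 UMIs (median depths 1321 and 1689 UMIs), the hepatocyte share standing for a type that should lack it. Barcodes under the UMI limit, which can hold free RNA as well as shallow cells or nuclei, had Bmp2 at 49.8 to 277 CPM in nuclei, above the Kupffer and hepatocyte levels of the same rats, and at 15 to 27.3 in TLH; the part of free RNA in the low levels was not tested.

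Rspo3 had its highest level in the mesenchymal class, with a lower level in the endothelial class. Mesenchymal nuclei held it at 447, 344, 269 and 229.6 CPM (201 UMIs in all) and endothelial nuclei at 32.6, 36.6, 120.2 and 49.7 (68 UMIs), with hepatocytes at 1.07 to 4.02 and a single UMI among Kupffer nuclei. No endothelial value reached the lowest mesenchymal one. Rspo3 was 5.41-fold lower in endothelial than in mesenchymal nuclei (log2 fold change -2.44 ± 0.29 SE, adjusted p = 2.01e-08), but 18.6-fold higher than in hepatocytes (4.22 ± 0.37, adjusted p = 1.68e-12) and 47.7-fold higher than in Kupffer nuclei (5.58 ± 0.84, adjusted p = 1.69e-06). Without the endothelial cluster of high hepatocyte gene levels the log2 fold change was -1.54 (adjusted p = 6.16e-04) against mesenchymal, 5.13 against hepatocyte and 6.43 against Kupffer nuclei. In TLH the mesenchymal levels were 108, 94.1, 124 and 150.4 CPM and the endothelial ones 12.0, 23.8, 12.1 and 36.3. Here the endothelial level was 5.57-fold lower (-2.48 ± 0.23, adjusted p = 1.17e-08), and the log2 fold change was -2.64 without the mixed mesenchymal cluster. An Rspo3 UMI was found in 50.8% of mesenchymal, 5.84% of endothelial and 0.477% of hepatocyte nuclei, and in 37.6%, 4.52% and 0.185% after thinning to 1000 UMIs. The endothelial cluster of high hepatocyte gene levels held little of it, at 5.81 CPM, against 77.1 and 135 in the other 2 endothelial clusters. Barcodes under the UMI limit held Rspo3 at 7.83 to 11.4 CPM in the nuclear libraries of DA-1, DA-2 and LEW-1 and at 41.4 in that of LEW-2, beside 49.7 in its endothelial nuclei, and at 3.57 to 6.64 in TLH; the part of free RNA in the endothelial levels was not tested.

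**Figure D1:**
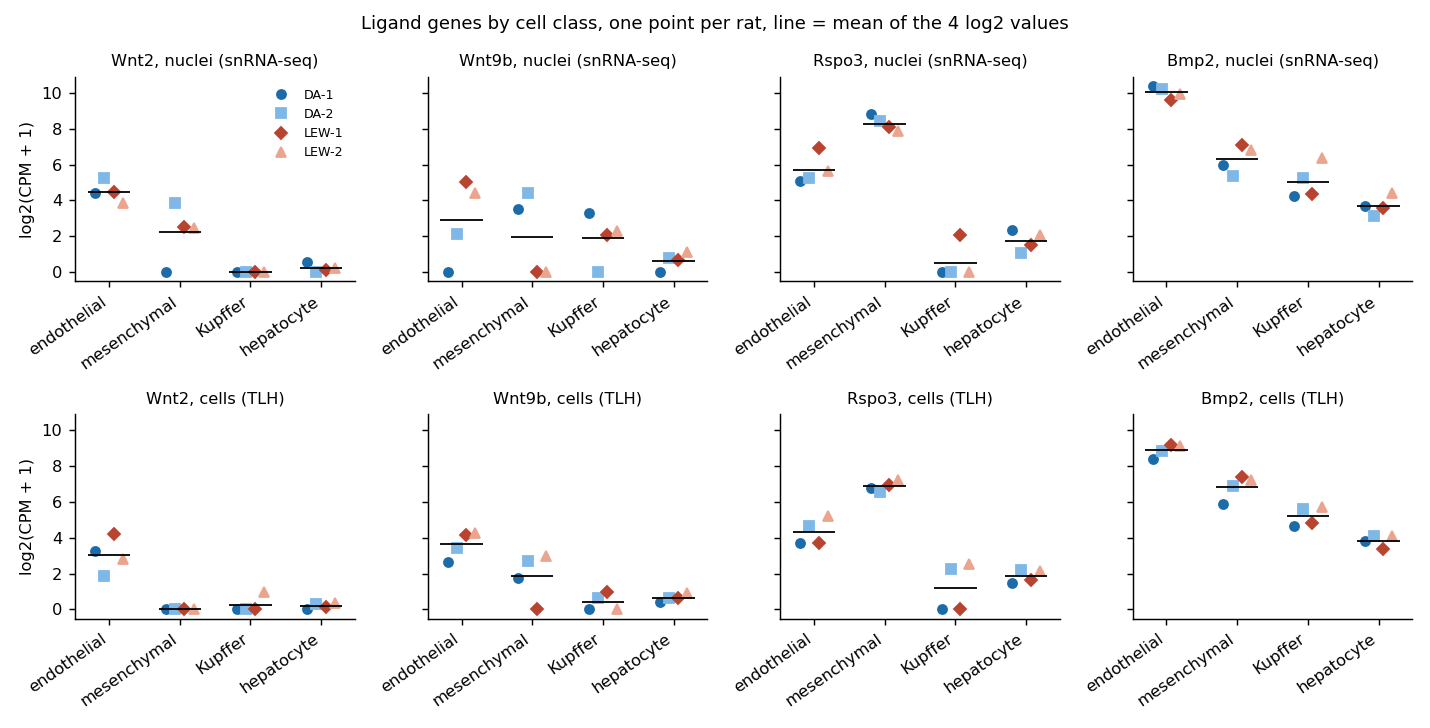
Levels of Wnt2, Wnt9b, Rspo3 and Bmp2 by cell class, as log2(CPM + 1), in nuclei (top row) and TLH cells (bottom row); each point is 1 rat and each line the mean of the 4 log2 values. Bmp2 is highest in the endothelial class of every rat and Rspo3 in the mesenchymal class of every rat, while Wnt2 and Wnt9b stay low, with endothelial nuclei at 13.2 to 36.6 CPM for Wnt2.

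The WNT ligands were rare. Wnt2 reached 20.4, 36.6, 21.2 and 13.2 CPM in endothelial nuclei, on 26 UMIs in all, against 4 UMIs in mesenchymal, 4 in hepatocyte and 0 in Kupffer nuclei. Pooled over the rats its endothelial level was 150.0 times that of hepatocytes (exact 95% interval 52.0 to 591) and 3.88 times that of mesenchymal nuclei (1.34 to 15.3), and it was at least 6.51-fold higher than in Kupffer nuclei, taking a floor of 3 UMIs over the class. These intervals, like every other interval on counts given here, cover counting error only. In TLH Wnt2 had 46 UMIs in endothelial cells (8.64, 2.69, 17.8 and 6.05 CPM), 0 in mesenchymal, 1 in Kupffer and 6 in hepatocyte cells, so it was at least 7.84-fold higher in the endothelial than in the mesenchymal class and 50.4 times the hepatocyte level (21.5 to 144). Wnt9b was seen in endothelial nuclei at 0, 3.33, 31.8 and 19.9 CPM (16 UMIs) and in endothelial TLH cells at 5.32, 9.61, 17.0 and 18.2 (66 UMIs). Its endothelial level was 21.7 times the hepatocyte level in nuclei (10.3 to 45.7) and 19.7 times in TLH (12.0 to 33.5), and 2.39 (0.770 to 9.81) and 2.60 (1.42 to 5.13) times the mesenchymal level. Both genes fell under the filter on low counts. Tested without that filter, Wnt2 and Wnt9b were higher in endothelial cells than in hepatocytes (adjusted p = 1.28e-17 and 2.30e-07 in nuclei, 1.70e-21 and 4.38e-24 in TLH), and against mesenchymal cells both passed in TLH (adjusted p = 6.34e-06 and 0.0344) but not in nuclei (0.194 and 0.705). Bmp6, the other endothelial BMP ligand known from mice, gave 8 UMIs over all nuclei, 5 of them endothelial, and 0 UMIs in TLH cells. On 5 against 2 UMIs its level in endothelial nuclei was 57.7 times that of hepatocytes (9.44 to 606), and without the filter the difference passed (adjusted p = 0.00609), while mesenchymal and Kupffer nuclei, at 0 UMIs, were not told apart from endothelial ones (adjusted p = 0.580 and 0.399).

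Of the 10 genes, 4 (Bmp2, Rspo3, Axin2 and Hamp) passed the filter on low counts in the comparisons between classes. Against hepatocytes 3 of the 4 were called in nuclei (Bmp2 and Rspo3 higher, Hamp lower), where 47.7% of all 5582 genes tested were called, and the same held in TLH, where 42.3% of 8024 were. Against the mesenchymal class 2 of 4 were called in both data types (Bmp2 higher, Rspo3 lower), beside 12.3% of all genes in nuclei and 13.4% in TLH. Against Kupffer cells 2 were called in nuclei (Bmp2 and Rspo3) and all 4 in TLH, all higher, beside 16.3% and 37.0% of all genes. For Axin2 the TLH difference from Kupffer cells was 1.35 ± 0.44 on the log2 scale (adjusted p = 0.0126), on only 48 endothelial and 15 Kupffer UMIs, and it did not pass without DA-2 (1.14, adjusted p = 0.0767), without LEW-1 (1.36, 0.0621) or with a lower UMI limit (0.63, 0.166). Hepatocyte sums differ in composition from the others: scaling by library size alone moved the median log2 difference of all genes by 0.43 in nuclei and 0.27 in TLH, and the share of higher genes among those called from 43.7% to 78.3% and from 52.1% to 80.2%. The calls of Bmp2, Rspo3 and Hamp against hepatocytes held under that scaling.

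Beside the members, the other genes of the pathways were followed in the same classes. The list of WNT, R-spondin, BMP and hepcidin genes held 142 names, 137 with counts, of which 47 could be tested between nuclear classes. Against mesenchymal nuclei 5 of the 47 were higher in endothelial nuclei and 5 lower, beside 12.3% of all genes called. Lower were Bmp5 (log2 fold change -6.36 ± 0.36 SE, adjusted p = 3.30e-20) and Gdf2, the circulating ligand BMP9 (-6.27 ± 0.68, adjusted p = 1.07e-10), with Wnt4 (-1.02 ± 0.26, adjusted p = 0.00405), Rspo3 and the secreted follistatin relative Fstl1 (-0.69). The mesenchymal class thus held the higher level of Bmp5, Gdf2 and Wnt4 as well as of Rspo3. Higher in endothelial nuclei, beside Bmp2, were the BMP9 receptor Acvrl1 (3.63) and its co-receptor Eng (2.02), the WNT receptor Fzd4 (1.74) and the BMP target Id1 (1.25). In TLH 7 of 58 were higher and 11 lower in endothelial cells, beside 13.4% of all genes, and Bmp5 (-4.11 ± 0.21), Wnt4 (-3.50 ± 0.33) and Gdf2 (-3.27 ± 0.32) were again among the lower, with the BMP binding protein Bmper (-3.82) and the WNT target Nkd1 (-3.24 ± 0.46). Against Kupffer cells 10 of 47 were higher and 3 lower in nuclei, and 24 of 58 higher and 7 lower in TLH, beside 16.3% and 37.0% of all genes. In TLH Rspo1, another R-spondin, was lower in endothelial cells (-4.70 ± 0.47, adjusted p = 1.08e-10). In nuclei the genes higher than in Kupffer cells included Eng (4.04), Fstl1 (3.62) and Fzd4 (2.45), and the lower ones were the WNT transcription factor Tcf7l2 (-1.40), Id2 (-1.18) and the interleukin-6 receptor Il6r (-0.75).

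On the receiving side, against hepatocyte nuclei 16 of 47 list genes were higher in endothelial nuclei and 17 lower, where 47.7% of all genes were called, beside a median of 0.04 for the list and -0.08 for all genes. The higher ones included Acvrl1 (5.78 ± 0.45), Fstl1 (5.03), Tgfb1 (4.52), Eng (4.43) and Id1 (4.10). The lower ones included the hepatocyte activin gene Inhbc (-1.62), the secreted protein Lect2 (-1.29), the BMP co-receptor for hepcidin control Hjv (-1.25), the transferrin receptor Tfrc (-1.16) and Tmprss6, the protease that cleaves hemojuvelin (-1.08). Of 8 tested genes of the hepcidin list, which includes Hamp, 5 were lower (Hamp among them) and 1 higher in endothelial nuclei, with a median of -0.99. The counts were the same in TLH (median -0.72), again with Hamp among the lower. Of all genes 47.7% in nuclei and 42.3% in TLH were called in either direction. TLH also gave Id1 (3.54) and Id3 (3.41), both BMP targets, as higher in endothelial cells, and Atoh8 (-1.31), another BMP target, as lower.

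The 2 immune-enriched libraries, 1 per strain, held 553 endothelial cells, in which Alb was at 6470 CPM against 47315 in the hepatocytes of the same libraries; their levels are given without a test. Bmp2 stood at 1268 (DA) and 1761 (LEW) CPM in endothelial cells against 2.76 and 5.40 in hepatocytes and 69.8 and 203 in Kupffer cells. Its level in the 70 mesenchymal cells was 359.5 and 922, but those cells also held Lyve1 at 1340 and C1qa at 5271. Rspo3 was again higher in mesenchymal cells (427 and 230.4) than in endothelial cells (54.5 and 34.9), and Wnt2 higher in endothelial cells (34.4 and 24.0, against 0 and 9.72). Bmp6, at 5.74 and 2.91 CPM, was counted in endothelial cells on 8 UMIs, stood at 7.49 and 1.94 in mesenchymal cells on 1 and 2 UMIs and had none in hepatocytes.

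Within the endothelium, cells were sorted by zone with genes that are no members. A cell was called central-type if it held a UMI of Kit, Thbd, Cdh13, Fabp4 or Plxnc1 and none of the portal genes Efnb2, Dll4, Ntn4, Ltbp4, Adgrg6, Msr1 or Cd36, and portal-type in the reverse case, which gave 18 to 26 central-type and 33 to 63 portal-type nuclei per rat. In all 88 central-type and 191 portal-type of 531 endothelial nuclei and 472 and 571 of 2662 TLH cells were compared, since 164 nuclei and 172 TLH cells held both kinds of gene and 88 and 1447 held neither; Rspo3 averaged 86.9 and 12.9 CPM in the first of these groups and 70.2 and 21.8 in the second. Rspo3 stood at 92.5, 156, 73.1 and 157 CPM in central-type nuclei and at 0, 15.9, 19.6 and 29.0 in portal-type nuclei, higher in central-type nuclei of each of the 4 rats and with no overlap, on 21 against 7 UMIs (pooled ratio 7.62, exact 95% interval 3.12 to 21.2). In TLH the central-type levels of 21.8, 51.5, 15.7 and 60.2 were above the portal-type levels of 0, 2.83, 0 and 34.7 in the same rat each time, on 40 against 6 UMIs (8.30, 3.50 to 24.0). Tested without the filter on low counts, the TLH difference passed (log2 fold change 2.95 ± 0.55 SE, adjusted p = 6.10e-05) and the nuclear one did not (2.54 ± 0.66, adjusted p = 0.160).

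Wnt2 followed in nuclei, with 123, 77.8, 36.5 and 58.9 CPM in central-type and 0, 15.9, 0 and 0 in portal-type nuclei (12 against 2 UMIs, ratio 15.2, 3.39 to 140.2), a difference of 3.47 ± 1.02 on the log2 scale that missed the threshold without the filter (adjusted p = 0.315). TLH gave Wnt2 at 21.8, 4.29, 19.6 and 17.2 against 4.19, 1.42, 29.8 and 0, a ratio of 1.74 whose interval of 0.720 to 4.39 includes no difference, and Wnt9b a ratio of 2.08 (0.966 to 4.66). In nuclei Wnt9b stood at 0, 25.9, 91.3 and 0 in central-type against 0, 0, 9.79 and 0 in portal-type nuclei, on 6 against 1 UMIs (15.2, 1.85 to 701). For Bmp2 the difference did not pass in either data type. Its levels were 1604, 855, 1133 and 1138 in central-type against 905, 1119, 519 and 1024 in portal-type nuclei (0.42 ± 0.21, adjusted p = 0.580; pooled ratio 1.28, 1.08 to 1.52), and 379.6, 510.3, 599.7 and 697 against 373, 484, 548 and 632 in TLH (0.07 ± 0.09, adjusted p = 0.985), where the pooled ratio was 1.07 (0.953 to 1.20). Of the members only Bmp2 and Hamp passed the filter here. None of the 2 was called by edgeR or by DESeq2 in nuclei (1 at an unadjusted p under 0.05) or in TLH (0 unadjusted), beside 0.0721% and 0.0355% of all genes, which is 1 gene in each case.

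**Figure D2:**
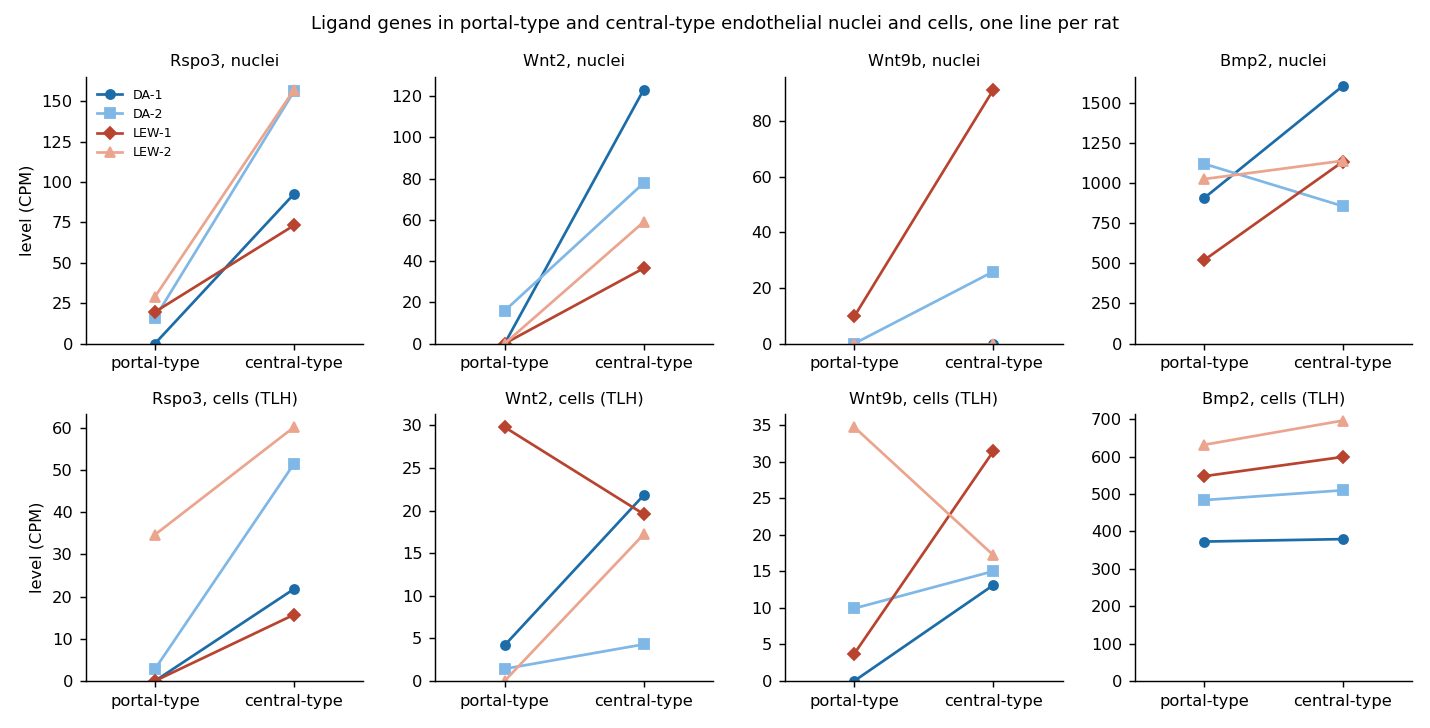
Levels in CPM of Rspo3, Wnt2, Wnt9b and Bmp2 in portal-type and central-type endothelial nuclei and TLH cells; each line joins the 2 values of 1 rat. Rspo3 is higher in the central type in all 4 rats of both data types, and Bmp2 in TLH lies at 373 to 632 in the portal and 379.6 to 697 in the central type.

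On the hepatocyte side Axin2, the most direct reporter of WNT signalling in the set, was higher at the pericentral end. It was not particular to hepatocytes. Pooled over the rats it stood at 24.5 CPM in hepatocyte, 23.0 in endothelial, 34.2 in Kupffer and 35.6 in mesenchymal nuclei. The TLH levels in the same order were 8.68, 8.00, 3.01 and 12.7. Hepatocytes of each rat were ranked by 4 pericentral genes (Oat, Sult1e1, Cyp2e1 and Glul) over 7 periportal genes (Arg1, Ass1, Gls2, Hmgcs1, Orm1, Srd5a1 and Tf), none of them a member, and split into 3 equal parts. Whether these zone genes themselves respond to WNT was not tested. Where they do, the ranking follows WNT response in part. A higher level of Axin2 or another WNT target at that end then describes genes that run together. Axin2 stood at 10.5, 45.4, 65.1 and 39.4 CPM in the pericentral part, 1.52, 10.1, 17.8 and 10.6 in the middle and 3.97, 6.88, 6.77 and 6.36 in the periportal part (504 UMIs pericentral, 45 periportal). The pericentral part was highest in every rat, and all 4 of its values were above all 4 periportal ones. Axin2 was 5.03-fold higher in the pericentral part (log2 fold change 2.33 ± 0.24 SE, adjusted p = 5.67e-08), with values of 1.30 to 2.76 over 12 alternatives. Of the 3 members tested here only Axin2 was called, beside 46.3% of all 8938 genes; Bmp2 (-0.02 ± 0.27) and Hamp (-0.28 ± 0.19, adjusted p = 0.229) were not. The pericentral nuclei were deeper, with median UMIs of 2117, 3095, 1858 and 3233 against 1460, 1502, 1424 and 1633. With textbook zone lists in place of these the depth order turned round (1276 to 1496 pericentral, 2035 to 3089 periportal) and Axin2 was still higher (1.30, adjusted p = 7.44e-04), but Bmp2 was then called higher too (0.86, adjusted p = 0.01), and its difference also turned positive, without passing, with library-size scaling (0.37, adjusted p = 0.299). Scaling by library size moved the median of all genes by 0.40 and the share of higher genes among those called from 50.1% to 79.8%.

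Rnf43, the ubiquitin ligase that removes WNT receptors, had 48 UMIs in pericentral and 6 in periportal hepatocyte nuclei, or 2.1, 4.7, 7.13 and 1.15 against 1.59, 0.688, 0.677 and 0.636 CPM, a pooled ratio of 5.20 (2.22 to 14.9) and a log2 fold change of 1.80 ± 0.62 without the filter (adjusted p = 0.0180). Lgr5 gave 3 UMIs in all hepatocyte nuclei, all 3 in the pericentral part of LEW rats, too few for a level. Of the whole list 17 of 58 genes were higher and 13 lower in pericentral nuclei, and of the 4 WNT targets tested 3 were higher and 1 lower, with a median of 1.27 against 0.09 for all genes, beside 46.3% of all genes called in either direction. Lect2 was the lower one (-0.70), and the higher ones were Axin2, the ammonium transporter Rhbg (1.58 ± 0.31, adjusted p = 2.03e-04) and the dicarboxylate transporter Slc13a3 (0.97). The BMP targets Id2 (1.40 ± 0.17) and Smad7 (1.00) and the stress-induced ligand Gdf15 (1.19) were also higher pericentrally. Lower were Inhbc (-1.34), the BMP modulators Twsg1 (-1.20) and Bambi (-1.08), and the hepcidin regulators Hfe (-1.12 ± 0.18, adjusted p = 1.67e-05) and Tmprss6 (-1.09 ± 0.17, adjusted p = 1.38e-05).

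In TLH hepatocytes 17.4% of 7987 genes were called between the zones. None of the 3 members tested was, by edgeR or DESeq2, and none had an unadjusted p under 0.05. Axin2 stood at 8.57, 4.80, 19.5 and 6.50 CPM in the pericentral and 8.15, 2.94, 14.2 and 1.25 in the periportal part, higher in the pericentral part of each of the 4 rats (0.42 ± 0.22, adjusted p = 0.204; pooled ratio 1.47, 1.11 to 1.94). Of 54 list genes 4 were higher and 8 lower. The higher ones were Rhbg (1.1 ± 0.18), Id2 (0.54), Slc13a3 (0.45) and Gdf15 (0.41), all higher in nuclei as well. Among the lower were Tmprss6 (-0.79 ± 0.10) and Inhbc (-0.71), as in nuclei, and the transferrin sensor Tfr2 (-0.58). Here library-size scaling moved the median by 0.11 and the share of higher genes from 40.8% to 70.4%.

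**Figure D3:**
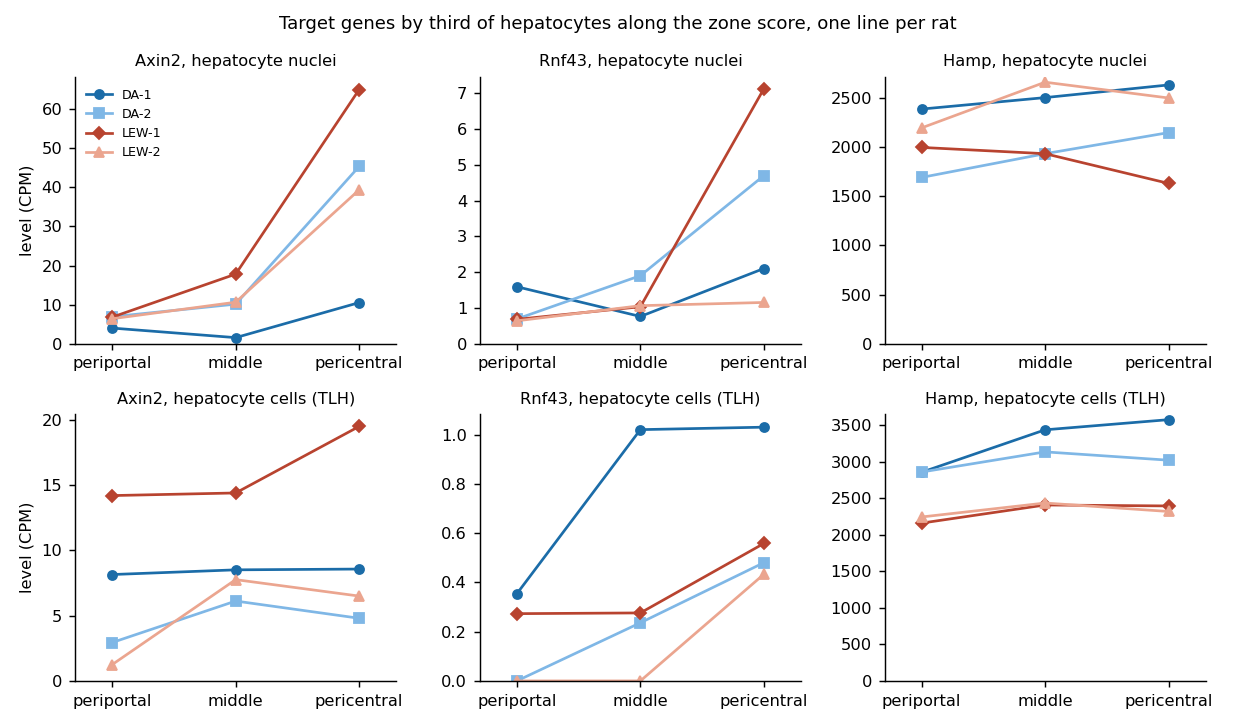
Levels in CPM of Axin2, Rnf43 and Hamp in the periportal, middle and pericentral part of hepatocytes, in nuclei and in TLH cells; each line is 1 rat. Axin2 in nuclei climbs to 10.5 to 65.1 in the pericentral part, whereas Hamp in nuclei is higher in the pericentral than in the periportal part in 3 of the 4 rats and lower in the other one.

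Visium spots, each a small piece of tissue with several cells, gave the same genes in place. Spots of each section were ranked by the same zone genes and split into 5 equal parts, and a gene was called if its level at the pericentral end differed at least 1.5-fold from the periportal end the same way in both sections. In such spots fewer cells of a type and less RNA per cell cannot be told apart, and the 2 sections were compared by counting intervals, without a test. From the periportal to the pericentral end Axin2 stood at 4.50, 4.97, 5.44, 6.28 and 9.98 CPM in section A, a ratio of ends of 2.22 (exact interval 1.47 to 3.41), and the values of section B were 5.30, 6.58, 5.72, 9.31 and 14.6 (2.75, 1.91 to 4.01). Rspo3, the amplifier, ran from 2.70 through 3.61, 5.44 and 4.63 to 7.51 in section A (2.79, 1.67 to 4.83), while section B went from 3.33 through 4.90, 6.23 and 6.58 to 9.05 (2.72, 1.71 to 4.42). Rspo3 and Axin2 thus had their highest level in the same part of the axis, and a link between them was not tested. Bmp2 was not called, at 15.5, 17.8, 16.0, 19.5 and 19.8 and at 20.6, 18.5, 15.7, 21.2 and 21.1 (1.28, 0.998 to 1.63, and 1.02, 0.817 to 1.28). Hamp ran the other way, from 1241 through 1247, 1155 and 992 to 793 in section A (0.639, 0.619 to 0.660), and section B went from 1247 through 1215, 1119 and 952 to 769.8 (0.617, 0.597 to 0.637).

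Of the 4 members with at least 20 UMIs in both sections 3 were called (Axin2 and Rspo3 higher, Hamp lower), where 6.11% of 9799 genes were. With 3 parts in place of 5, 2 were called, and Hamp, whose fold over both sections was then 0.671, was not. Summed endothelial markers were near level along the axis (2575 periportal against 2705 pericentral CPM in section A, 2604 against 2784 for section B), as were mesenchymal ones (2091 against 2248, 2200 against 2423), while Kupffer markers went from 2276 to 1380 and from 2564 to 1462 and hepatocyte markers from 272051 to 249020 and from 271738 to 246299; their part in these ratios was not tested. Wnt2 and Bmp6 had 0 UMIs in both sections, which allows a level of up to 0.107 and 0.106 CPM, and Lgr5 (0 and 1), Rnf43 (6 and 6) and Wnt9b (16 and 18) were too rare to place. WNT targets outside the set were also higher at the pericentral end, among them Rhbg (5.38 and 5.66), Slc13a3 (5.75 and 5.30), Sp5 (3.70 and 5.20) and Lect2 (1.91 and 2.08), as was Frzb, a secreted WNT inhibitor (5.04 and 3.15). For Sp5 the counts were 11 against 3 UMIs in section A (interval 0.977 to 20.6) and 19 against 4 in section B (1.73 to 21.0), and for Frzb 15 against 3 (1.43 to 27.2) and 23 against 8 (1.36 to 8.14). Tbx3 (4.03 and 12.0) rested on 8 against 2 (0.805 to 39.0) and 11 against 1 UMIs (1.75 to 518). Nkd1 was at 2.77 (1.40 to 5.90) and 1.33 (0.690 to 2.57) and was not called. The activin gene Inhbe was the lower one (0.636 and 0.656). Lect2, lower in pericentral than in periportal nuclei (-0.70 on the log2 scale), was thus higher at the pericentral end of the sections. Gdf15 was called higher as in nuclei (1.64 and 1.59), but on few UMIs, and its counting interval included no difference in both sections. For 7 other genes named above for their zone difference in nuclei there was no call here: the ratios were 1.05 and 1.16 for Hfe, 1.05 and 1.03 for Tmprss6, 1.12 and 0.990 for Inhbc, 1.04 and 1.11 for Twsg1, 0.727 and 0.836 for Bambi, 0.890 and 0.872 for Smad7 and 1.48 and 1.13 for Id2.

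**Figure D4:**
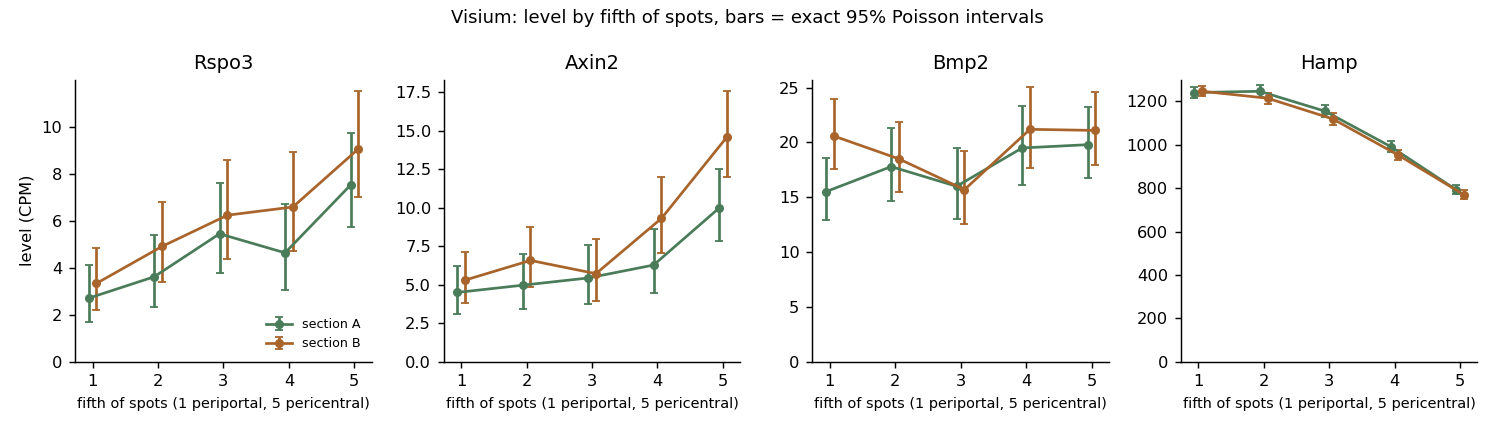
Levels in CPM of Rspo3, Axin2, Bmp2 and Hamp by part of the zone axis, from periportal (1) to pericentral (5), in sections A and B; bars are exact 95% Poisson intervals. Rspo3 and Axin2 are highest and Hamp lowest in part 5, and Bmp2 lies between 15.5 and 21.2 throughout.

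Hamp, the readout of BMP signalling in hepatocytes, was counted in every class of nuclei and TLH cells. Hepatocyte nuclei held 2530, 1972, 1831 and 2475 CPM, endothelial nuclei 1625, 1337, 1174 and 1765, mesenchymal nuclei 1185, 1226, 1145 and 1571 and Kupffer nuclei 1360, 1215, 1350 and 1940. The hepatocyte level was the highest in each rat. Barcodes under the UMI limit held 2387, 1610, 1782 and 1511, which was above the endothelial level in 3 of the 4 rats. Endothelial nuclei were 1.97-fold lower than hepatocyte nuclei (log2 fold change -0.98 ± 0.17 SE, adjusted p = 5.98e-06) and did not differ by test from mesenchymal (0.15 ± 0.18, adjusted p = 0.733) or Kupffer nuclei (0.02 ± 0.18, adjusted p = 0.962). Without the cluster of high hepatocyte gene levels, whose own Hamp level was 2155, the endothelial difference was -1.58 from hepatocyte (adjusted p = 2.92e-09), -0.65 from Kupffer (adjusted p = 0.00727) and -0.47 from mesenchymal nuclei (adjusted p = 0.0803). In TLH the levels were 3295, 3003, 2320 and 2332 in hepatocytes, 3151, 2627, 1898 and 2086 in endothelial cells, 3067, 2343, 1637 and 1734 in mesenchymal cells and 2366, 1931, 1256 and 1226 in Kupffer cells, against 3451, 2949, 2310 and 2350 in barcodes under the limit. Endothelial TLH cells were 1.37-fold lower than hepatocytes (-0.45 ± 0.07, adjusted p = 1.97e-06) and 1.44-fold higher than Kupffer cells (0.52 ± 0.07, adjusted p = 2.13e-07), with 0.20 on the log2 scale against mesenchymal cells (adjusted p = 0.0746), a difference that passed with DESeq2 size factors (0.21, 0.0397), without the filter (0.24, 0.0209), without DA-1 (0.25, 0.0347) and without LEW-1 (0.21, 0.0377) and turned to -0.09 without the mixed mesenchymal cluster (0.430) and to -0.04 with 1500 UMIs as the limit for the LEW rats (0.706). A Hamp UMI was found in 97.9% to 99.5% of the TLH cells of each class. In nuclei the shares were 62.1% (endothelial), 64.4% (mesenchymal), 70.2% (Kupffer) and 86.9% (hepatocyte). The immune-enriched libraries, with 438 and 1510 in barcodes under the limit, had 1284 and 982 in hepatocytes against 24.4 and 220.1 in endothelial, 7.40 and 75.1 in Kupffer and 30 and 50.6 in mesenchymal cells. The part of free RNA in the levels outside hepatocytes was not tested.

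**Figure D5:**
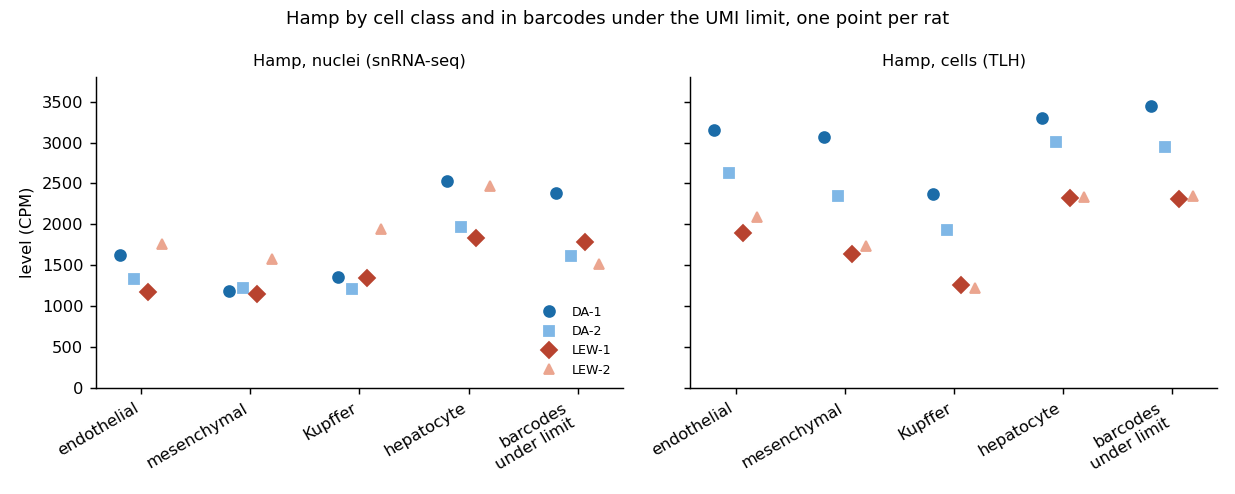
Hamp levels in CPM by cell class and in barcodes under the UMI limit, for nuclei (left) and TLH (right); each point is 1 rat. Over the 4 rats the barcodes under the limit lie within or above the range of the non-hepatocyte classes, although those of LEW-2 in nuclei lie below all 3 of its own, at 1511 to 2387 in nuclei and 2310 to 3451 in TLH.

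Along the lobule neither hepatocyte nuclei nor TLH hepatocytes showed the slope of Hamp seen in the sections. Pericentral, middle and periportal nuclei held 2637, 2151, 1633 and 2504, then 2508, 1936, 1936 and 2665, then 2391, 1694, 2000 and 2199 CPM, and the pericentral value was above the periportal one in 3 of 4 rats as a level although the scaled difference was negative (-0.28 ± 0.19). That difference was 0.10 with library-size scaling, 0.50 with the textbook zone lists (adjusted p = 0.0967) and -0.38 without DA-1 (adjusted p = 0.0410). In TLH the pericentral levels were 3576, 3021, 2395 and 2319 and the periportal ones 2856, 2859, 2160 and 2244, the pericentral one higher in 4 of 4 rats as a level (0.04 ± 0.11, adjusted p = 0.863). Of the 8 hepcidin genes tested, Hamp among them but not called, 3 were lower and none higher in pericentral nuclei (median -0.34 against 0.09 for all genes). In pericentral TLH cells 4 were lower and none higher (median -0.43 against 0.00). Of all genes 46.3% in nuclei and 17.4% in TLH were called in either direction.

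Strain was compared within each class, 2 LEW against 2 DA rats. In TLH the mitochondrial limit for kept cells was higher in the LEW than in the DA rats, and its part was not tested. In nuclei no member passed the threshold: 0 of 3 tested in endothelial, 0 of 3 in mesenchymal, 0 of 1 in Kupffer and 0 of 5 in hepatocyte nuclei by edgeR and by DESeq2, with 1, 1, 0 and 0 at an unadjusted p under 0.05, beside 0.555%, 1.11%, 1.96% and 1.32% of all genes called. The 2 with an unadjusted p under 0.05 were Rspo3 in endothelial nuclei, at 32.6 and 36.6 in DA and 120.2 and 49.7 in LEW (log2 fold change LEW over DA 1.30 ± 0.47 SE, adjusted p = 0.322), and Bmp2 in mesenchymal nuclei, at 62.4 and 40.4 against 137 and 110.2 (1.34 ± 0.44, adjusted p = 0.193). Rspo3 passed without LEW-2 (1.82, adjusted p = 0.0293). Axin2 in hepatocyte nuclei, at 6.02 and 25.4 in DA and 33.9 and 21.9 in LEW, differed more within DA than between strains (0.89 ± 0.56, adjusted p = 0.688) and passed only without DA-2 (2.19, adjusted p = 0.00588). The zone difference of Axin2 did not differ by strain past the threshold (0.55 ± 0.54, adjusted p = 0.986), nor did those of Hamp and Bmp2, and none of the 3 had an unadjusted p under 0.05. Among the other list genes Gdf15 was higher in LEW Kupffer nuclei (1.77, adjusted p = 0.0434) and the WNT transcription factor Lef1 lower in LEW hepatocyte nuclei (-3.26, adjusted p = 0.0321).

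In TLH the member called between strains was Hamp, lower in LEW mesenchymal (1.67-fold, log2 -0.74 ± 0.17 SE, adjusted p = 0.0263) and Kupffer cells (1.80-fold, -0.84 ± 0.17, adjusted p = 0.00279), with -0.59 ± 0.15 in endothelial cells (adjusted p = 0.0730) and -0.41 ± 0.12 in hepatocytes (adjusted p = 0.105). In nuclei of other rats no Hamp difference passed, at 0.21 ± 0.30 in mesenchymal (adjusted p = 0.830), 0.45 ± 0.31 in Kupffer (0.492), 0.01 ± 0.33 in endothelial (0.999) and -0.07 ± 0.42 in hepatocyte nuclei (0.973). The TLH level in barcodes under the limit, 3451 and 2949 in DA against 2310 and 2350 in LEW, was also lower in LEW, and the part of free RNA was not tested. DESeq2 did not call it in mesenchymal cells, and that call was also lost without the mixed mesenchymal cluster (-0.58, adjusted p = 0.102), without DA-1 (-0.51, 0.0521), LEW-1 (-0.68, 0.193) or LEW-2 (-0.82, 0.145) and with 1500 UMIs as the limit for the LEW rats (-0.43, 0.151). The endothelial difference passed without DA-2 (-0.73, adjusted p = 0.0469), without the filter on low counts (-0.63, 6.98e-04), with 1500 UMIs as the limit for the LEW rats (-0.60, 0.0369) and with crossed replicate numbers as a block (-0.59, 0.0289), and the hepatocyte difference passed without the filter (-0.43, 0.0322). In Kupffer cells it was lost without LEW-1 (-0.82, adjusted p = 0.0787), without LEW-2 (-0.86, 0.0613) and with the limit of 1500 UMIs per cell that the study states for the LEW rats (-0.53, 0.128) in place of 2000. The counts were 0 of 6 members tested in endothelial (3 unadjusted), 1 of 3 in mesenchymal (2), 1 of 2 in Kupffer (1) and 0 of 4 in hepatocyte cells (1), with DESeq2 also at 0 in endothelial and hepatocyte cells, beside 2.71%, 2.13%, 8.45% and 4.08% of all genes. Wnt2 (1.32 ± 0.61, adjusted p = 0.292), Wnt9b (1.06 ± 0.38, adjusted p = 0.179) and Bmp2 (0.43 ± 0.17, adjusted p = 0.219) in endothelial cells did not pass. Of the other list genes Fstl1 was higher in LEW endothelial cells (1.09, adjusted p = 0.0327), and Atoh8 (-2.30), the WNT receptor Fzd1 (-2.27), Eng (-1.23) and Tmprss6 (-0.97) were lower in LEW Kupffer cells, as were Fzd1 (-1.75), Il6r (-1.32) and Atoh8 (-0.71) in LEW hepatocytes. Scaling by library size changed the share of higher genes among those called from 48.7% to 32.4% in mesenchymal and from 45.7% to 35.3% in Kupffer nuclei, and from 44.7% to 57.4% in endothelial and 41.2% to 53.8% in mesenchymal TLH cells, and moved the median of all genes by -0.12 in Kupffer nuclei.

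The genes whose levels ran most like a member's were found over 20 sums, those of the 4 classes and of the other myeloid nuclei in each of the 4 rats, which share their library and depth within a rat, so these correlations are descriptions. Bmp2 ran with Pde2a (Pearson r 0.95), Adgrf5 (0.92), Clec14a (0.92), Cyp4b1 (0.92) and Rhoj (0.91), and Rspo3 with Cygb (0.92), a gene of stellate cells, Serinc3 (0.91), Slc9a3r2 (0.90) and Prelp (0.90). Wnt2, on 34 UMIs, ran with Tal1 (0.93), Lama4 (0.92) and Ushbp1 (0.92), and Hamp with the plasma protein genes Cp (0.88) and Vtn (0.85). No gene reached an r above 0.76 with Wnt9b or Bmp6.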

How the data were processed

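The single-cell, single-nucleus and Visium files hold raw UMI counts per gene and barcode, deposited by the authors as Cell Ranger 3.1.0 (cells and nuclei) and Space Ranger 1.1.0 (Visium) wrote them, against the rat Rnor 6.0 genome with Ensembl 98 genes per the methods of the study; no free RNA was subtracted. The TLH and immune-enriched matrices number their genes, and names were taken from the feature lists of the nuclei, which have the same 32883 entries and reference; the marker genes of each class were found at those numbers.

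The 10 genes, the lists and the tests were chosen with earlier results of these data known. Barcodes under 1000 UMIs (nuclei, immune) or under 1500 (DA-1) or 2000 (other TLH rats) were left out. So were those with a mitochondrial share over 10% (nuclei) or 50% (immune). In TLH that limit was 30% for DA-1, 20% for DA-2 and 40% for both LEW rats. It alone left out 22 and 3063 barcodes in DA-1 and DA-2, and 6 and 1 in LEW-1 and LEW-2. The part of these unlike limits in the TLH strain differences was not tested. A UMI limit of 1500 is stated for the LEW rats, and 2000 gives the numbers of cells of the study. Kept cells were normalized with sctransform 0.4.2 and clustered with Seurat 5.3.0 after Harmony over rats (15 components, resolution 0.6, or 2.5 for nuclei), and clusters were named from fixed markers. Scrublet (scanpy 1.11.5) called 1 to 21 doublets per library, so leaving out the 6% of cells with the highest score was an alternative. Counts were summed per rat and class and tested with edgeR 4.0.16 (R 4.3.3; TMM scaling, filterByExpr, robust quasi-likelihood fit, Benjamini-Hochberg adjustment), with rat as a block between classes and zones and none between strains. DESeq2 1.42.0 was an alternative. The rats are separate animals, 4 per data type. Between DA and LEW rats the same number is a name only: deviations of replicates numbered 1 correlated at -0.04 to 0.07 in nuclei and at -0.18 to -0.1 in TLH. The fitting code was tested on counts simulated from the nuclear sums with known changes and a set spread. Of log2 changes of 2 it recovered 78% (endothelial against hepatocyte), 96% (zones), 80% (endothelial types), 70% (strain, endothelial) and 89.5% (strain, hepatocyte). Of log2 changes of 1 it recovered 22.5%, 56.5%, 29%, 10% and 6% in the same order. A difference of that size can thus miss the threshold, above all between strains. Named were the members in every comparison that could be tested and, of the other list genes, up to 5 per direction with the largest change past the threshold; Lect2 between zones was named after its values were seen. Ratio and level intervals are exact (conditional or Poisson, 95%; scipy 1.17.1). Both sections came from Wistar rats, and the study describes 2 animals.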

Additional observations from a re-analysis of the deposited data

How the results depend on the processing

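Over the alternatives tried (library-size scaling, DESeq2, no filter on low counts, clustering with the pathway genes kept, Scrublet, zone lists, UMI limits, leaving out a rat, and those added after seeing the data: leaving out a mixed cluster and crossed replicate numbers), 449 of 499 log2 fold changes of members kept their direction and side of the threshold, 13 were weaker, 12 stronger and 25 reversed; the cause was not tested. Members called rose without the filter from 3 to 6 (nuclei) and 5 (TLH) for endothelial against hepatocyte, from 2 to 5 against mesenchymal TLH cells, from 1 to 2 between zones in nuclei (also 2 with textbook lists, through Bmp2), and from 0 to 1 between endothelial types, strains in endothelial and strains in hepatocyte TLH cells, where more genes were tested. Leaving out a rat gave 1 to 2 between zones in nuclei (2 without DA-1) and 0 to 1 between strains in endothelial nuclei, hepatocyte nuclei, endothelial TLH cells (1 without DA-2) and Kupffer TLH cells, and 0 to 2 in mesenchymal TLH cells. Between strains in TLH the limit of 1500 UMIs gave 1 in endothelial (against 0), 0 in mesenchymal and 0 in Kupffer cells (against 1 each), and the mesenchymal count was 0 with DESeq2, with Scrublet and without the mixed cluster.

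Reversed values were for Axin2 0.12 (library size) and, leaving out a rat, -0.50 to 0.01 (highest without DA-2) between endothelial and hepatocyte nuclei, -0.81 to 0.68 (highest without DA-2) against mesenchymal nuclei and -0.28 to 1.35 (lowest without LEW-1) between strains in TLH hepatocytes. For Bmp2 between zones they were 0.37 (library size), 0.02 (pathway genes kept), 0.86 (textbook lists, adjusted p = 0.01), 0.05 (2 parts in place of 3) and -0.36 to 0.28 (leaving out a rat; 0.06 and 0.28 without DA-2 and LEW-2) in nuclei, and -0.05 (1500 UMIs) and -0.04 to 0.28 (leaving out a rat, lowest without LEW-2) in TLH. For Hamp they were -0.47 against mesenchymal and -0.65 (adjusted p = 0.00727) against Kupffer nuclei without the endothelial cluster of high hepatocyte gene levels, -0.00 (library size), -0.10 (Scrublet), -0.04 (pathway genes kept), and -0.08 to 0.08 (leaving out a rat; -0.08 and -0.02 without DA-1 and DA-2) against Kupffer nuclei, 0.10 (library size) and 0.50 (textbook lists) between zones in nuclei, -0.02 (textbook lists) and -0.03 to 0.07 (leaving out a rat, lowest without DA-1) between zones in TLH, and -0.04 (1500 UMIs) and -0.09 (without the mixed cluster) against mesenchymal TLH cells, where 4 other alternatives passed the threshold with Hamp higher in endothelial cells.

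With the replicate block between strains the members called were 0 in each nuclear class and 0, 1, 1 and 0 in endothelial, mesenchymal, Kupffer and hepatocyte TLH cells, as without it; crossed numbers in TLH gave 1 in endothelial and 2 in mesenchymal cells. The numbers do not pair the rats. The block moved the genes called from 29 to 133, 39 to 119 and 141 to 419 in endothelial, mesenchymal and hepatocyte nuclei, and from 199 to 300, 114 to 207 and 403 to 185 in the same TLH classes.

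Counts over all genes that moved by over 1.5 times were, between classes, 2661 to 4047 (endothelial against hepatocyte nuclei, no filter), 688 to 1242 and 912 to 1944 (against mesenchymal and Kupffer nuclei, without the mixed endothelial cluster), 912 to 1398 (no filter) and 1076 to 704 (mesenchymal TLH, without DA-2). Between zones in TLH 1386 became 174 (textbook lists), 529 (DESeq2) and 691 to 822 (leaving out a rat), and between endothelial types 1 became 0 to 9 in nuclei and 0 to 25 in TLH. Between strains 29, 39, 81 and 141 in nuclei became 64 to 174, 11 to 126, 42 to 233 and 79 to 527, and 199, 114, 569 and 403 in TLH became 12 to 502, 48 to 273, 186 to 978 and 39 to 1111. Visium calls went from 599 to 1629 and 1576 with a single section.

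Depth limits Wnt2, Wnt9b, Bmp6, Lgr5 and Rnf43, which rest on few UMIs. The part of free RNA in Hamp outside hepatocytes was not tested.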
